A study of Mus musculus with 8 samples.

Results

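The miR-23/27/24 clusters were examined in small RNA libraries of mouse bone marrow LSK cells, sorted as lineage-negative, Sca1-positive and cKit-positive and containing the stem cells and multipotent progenitors of blood. Members were all rows of the deposited count table named miR-23a, miR-23b, miR-24, miR-27a or miR-27b with any arm or copy suffix, which gave 7 of 190 mature miRNAs: miR-23a-3p, miR-23b-3p, miR-27a-3p, miR-27b-3p, miR-24-3p, miR-23a-5p and miR-27a-5p. The 4 db/db libraries came from mice that carry 2 copies of the db allele of Lepr, the leptin receptor gene (strain B6.BKS(D)-Leprdb/J), and become obese and diabetic. The 4 db/m libraries came from mice with 1 copy (B6.BKS(D)-Leprdb/+ db/m). Both groups are described as 6 months after diabetes onset, and no age, sex or treatment is given in the labels used here. Because all 8 titles read db/m, libraries were grouped by the genotype and strain labels instead. The design asks whether these miRNAs differ in level between the genotypes, and the paired clusters allow a comparison of the a and b copies inside each library.

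Each cluster is transcribed as a single primary RNA that is cut into a miR-23, a miR-27 and a miR-24 hairpin. Each hairpin gives a 5p and a 3p arm, and the 3p arms are the usual guide strands. A miRNA finds its target messenger RNAs mainly through its seed, bases 2 to 8, so the a and b copies of miR-23 and of miR-27 are expected to share targets. In mouse haematopoietic progenitors the a cluster is activated by the myeloid factor PU.1 and restrains B-cell fate. miR-23 and miR-27 are also abundant in endothelium, where they take part in vessel growth. miR-27 is known to act on Runx1 and Pparg. In human cells miR-23 acts on glutaminase and miR-24 on the activin receptor ALK4.

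The mature sequences are shown because the a and b copies are nearly alike, which bears on how their counts can be split. They are RefSeq sequences of build GRCm38.p6 with the seed in capitals, and 6 of the 7 members were matched there.
miR-23a-3p: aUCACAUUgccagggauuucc
miR-27a-3p: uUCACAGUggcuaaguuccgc
miR-27b-3p: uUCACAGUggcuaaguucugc
miR-24-3p: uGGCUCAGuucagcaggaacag
miR-23a-5p: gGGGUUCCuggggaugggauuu
miR-27a-5p: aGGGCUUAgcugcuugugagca
miR-27a-3p and miR-27b-3p differ at 1 of 21 bases, C19U counted from the 5′ end of miR-27a-3p, outside the seed. For miR-23b-3p the hairpin Mir23b is shown, with capitals for the run of 18 bases that it shares with bases 1 to 18 of the 21 bases of miR-23a-3p, seed included.
Mir23b: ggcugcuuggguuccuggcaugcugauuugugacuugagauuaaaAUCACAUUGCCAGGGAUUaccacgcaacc
The 3p members therefore fall into 3 seed families, miR-23, miR-27 and miR-24, while each of the 5p arms has a seed of its own. miR-24-3p has the same sequence in both clusters, so its counts cannot be assigned to either. No source used here says how reads that fit several of them were assigned, so the split of counts between miR-27a-3p and miR-27b-3p, and between miR-23a-3p and miR-23b-3p, is uncertain.

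In GRCm38 coordinates the a cluster lies on the plus strand of chromosome 8, with Mir23a at 84208518 to 84208592, Mir27a at 84208672 to 84208758 and Mir24-2 at 84208815 to 84208921, a span of 404 bases. No GENCODE M21 gene other than the hairpins themselves contains them. The b cluster lies on the plus strand of chromosome 13, with Mir23b at 63300484 to 63300557, Mir27b at 63300712 to 63300784 and Mir24-1 at 63301208 to 63301275, a span of 792 bases. It lies within the protein-coding gene 2010111I01Rik on the same strand and within the span of Fancc on the opposite strand. Mir23b lies in no annotated exon there, while Mir27b and Mir24-1 each lie inside an annotated exon of 2010111I01Rik.

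**Figure D1:**
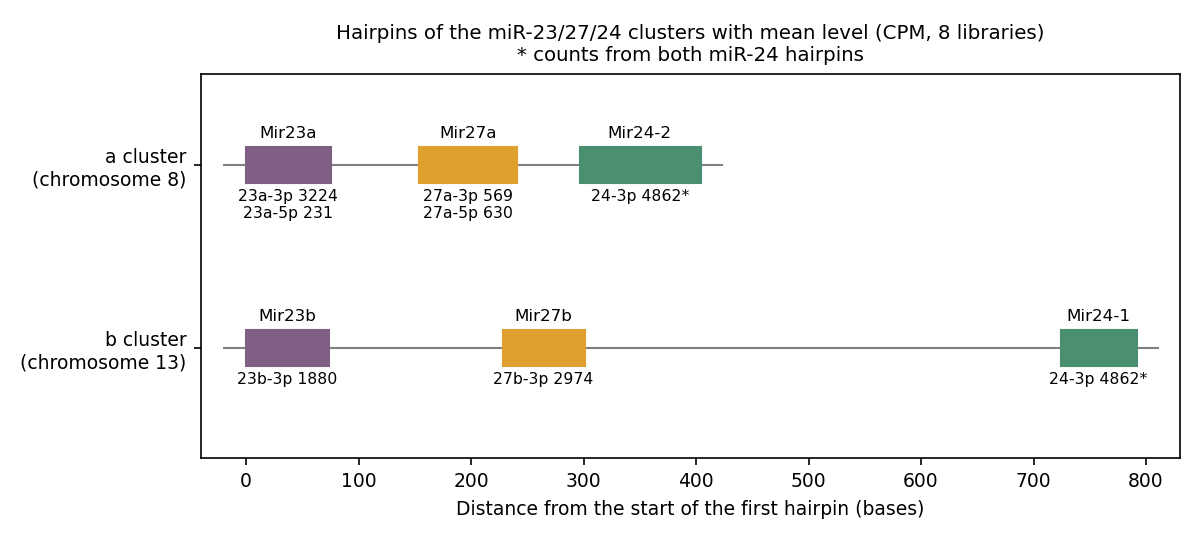
Hairpins of the a cluster (top) and the b cluster (bottom), drawn to scale by distance in bases from the start of the first hairpin, with the mean level of each counted arm in CPM over 8 libraries. In the a cluster miR-23a-3p (3224 CPM) stands above miR-27a-3p (569 CPM), and in the b cluster miR-27b-3p (2974 CPM) stands above miR-23b-3p (1880 CPM).

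The libraries held between 13273 counts in db/m replicate 2 and 77834 counts in db/m replicate 3. Levels are given as CPM, a count relative to the size of its library, where that size is first adjusted by TMM, a factor that evens out composition between libraries. The LSK-associated miRNAs miR-125a-5p, miR-125b-5p, miR-99b-5p, miR-196b-5p, miR-10a-5p and miR-126a-3p were all counted and ranked 46th or higher among the 190. They summed to 92178 to 124126 CPM in db/db and 63693 to 97875 CPM in db/m. Of the 6, miR-196b-5p and miR-126a-3p were higher in db/db past the threshold (adjusted p = 0.0436 and 0.00532 by edgeR). Of all tested miRNAs 4.86% passed in either direction. Of the markers of other cells, the myeloid pair miR-223-3p and miR-142a-3p summed to 18035 to 25081 CPM in db/db and 16428 to 26394 CPM in db/m. The lymphoid marker miR-150-5p ran from 2979.7 to 4107 CPM in db/db and from 3523 to 8864 CPM in db/m. The stromal markers miR-143-3p and miR-199a-3p summed to 175 to 1236 CPM in db/db and 76.4 to 498 CPM in db/m. They were the only 2 of 5 listed stromal markers among the 190 miRNAs. Of the 3 muscle and the 3 erythroid markers listed, 1 each was among the 190, and of 2 neural markers 0. The muscle marker miR-1a-3p ran from 139 to 1135 CPM in db/db and from 19.2 to 242 CPM in db/m, the liver marker miR-122-5p from 331 to 702 CPM in db/db and from 242 to 1452 CPM in db/m, and the erythroid marker miR-486a-5p from 1108 to 5754 CPM in db/db and from 2252 to 3388 CPM in db/m. miR-1a-3p and miR-143-3p did not pass the low-count filter and were not tested, and none of the other myeloid, lymphoid, stromal, liver and erythroid markers named here passed the threshold. The endothelial miRNAs miR-126a-3p, which is also on the LSK-associated list, and miR-126a-5p were higher in db/db and passed it, at a sum of 17641 to 40999.9 CPM against 8237 to 12850.3 CPM in db/m. The part of these cells in the levels below was not tested, and in sorted bulk libraries fewer cells of a type and less miRNA per cell cannot be told apart.

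No member differed between the genotypes past the threshold. By edgeR's quasi-likelihood test over 144 miRNAs, 0 of the 6 members that passed the low-count filter had an adjusted p under 0.05, beside 4.86% of all tested miRNAs. At unadjusted p under 0.05 there were also 0 members, beside 22.2% of all tested. By DESeq2 and by edgeR's likelihood ratio test 0 members passed as well. The 6 log2 fold changes of db/db over db/m ran from -0.34 to 0.37 with a median of -0.03, and the median of all 144 was -0.03. Together the 7 members took 1.45% ± 0.143 of the raw counts in db/db and 1.40% ± 0.0917 in db/m (SD, n = 4 each). With TMM scaling the order of the means turned, at 14103 ± 1379 CPM in db/db and 14637 ± 1173 CPM in db/m (SD, n = 4 each, no test).

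miR-24-3p was the most abundant single member, ranked 33rd of 190 by mean CPM, and its level was near equal in the genotypes. Its sequence is the same in both clusters, so its counts may come from either or both, and its level stands for the whole family. Over 8 libraries it averaged 4862 ± 543 CPM, beside 5104 ± 798 CPM for the miR-23 family and 3543 ± 743 CPM for the miR-27 family (SD, no test). It had 4931, 4761, 4485 and 5233 CPM in db/db replicates 1 to 4, against 5379, 3744, 5015 and 5345 CPM in db/m replicates 1 to 4. The db/db libraries lay inside the range of the db/m libraries, whose lowest value was that of the shallowest library. The means were 4852 ± 313 CPM in db/db and 4871 ± 769 CPM in db/m (SD, n = 4 each). The log2 fold change was -0.02 (SE 0.18, adjusted p = 0.977 by edgeR), with a 95% interval from -0.41 to 0.38. Its sign turned with RLE factors, with library totals, with at least 10 counts in every library and without any of 4 libraries in turn (db/db replicates 3 and 4, db/m replicates 1 and 4), so no direction can be given.

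miR-23a-3p, the most abundant member specific to the a cluster, overlapped between the genotypes. It had 3468, 2721, 2377 and 4085 CPM in db/db, against 3312, 3973, 2676 and 3179.9 CPM in db/m. The highest and the lowest of the 8 libraries were both db/db. The means were 3163 ± 765 CPM in db/db and 3285 ± 534 CPM in db/m (SD, n = 4 each), and the log2 fold change was -0.04 (SE 0.22, adjusted p = 0.954 by edgeR; 95% interval -0.52 to 0.45). It turned to 0.13 without db/db replicate 3, to 0.033 without db/m replicate 2, to 0.070 with library totals, to 0.083 with at least 10 counts in every library and to 0.046 with libraries of 1 title number summed, so no direction can be given.

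miR-23b-3p, its partner in the b cluster, was the only member whose genotypes did not overlap in TMM-scaled CPM, a property of 17.4% of all tested miRNAs. It had 1725, 1691, 1405 and 1788 CPM in db/db, against 1934, 2292, 2003 and 2203 CPM in db/m. All 4 db/db libraries lay below all 4 db/m libraries. The means were 1652 ± 170 CPM in db/db and 2108 ± 167 CPM in db/m (SD, n = 4 each). The log2 fold change was -0.34 (SE 0.21, adjusted p = 0.355 by edgeR), with a 95% interval from -0.79 to 0.10, so the difference did not pass. With counts scaled by library totals alone the groups overlapped, at 1439 to 1826 CPM in db/db and 1801 to 2260 CPM in db/m, and the log2 fold change was -0.23. It was -0.21 without db/db replicate 3 and -0.22 with at least 10 counts in every library. In the authors' deposited table miR-23b-3p had the lowest false discovery rate of the 7 members, 0.302, at a log2 fold change of -0.42.

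miR-27b-3p, the miR-27 copy with more counts, overlapped between the genotypes. It had 2858, 3168, 2134 and 3157 CPM in db/db, against 3100.0, 2445, 4114 and 2816 CPM in db/m. Of the 8 libraries db/db replicate 3 was the lowest and db/m replicate 3 the highest. The means were 2829 ± 485 CPM in db/db and 3119 ± 716 CPM in db/m (SD, n = 4 each), and the log2 fold change was -0.16 (SE 0.22, adjusted p = 0.777 by edgeR; 95% interval -0.64 to 0.33). Without db/db replicate 3 it was 0.036.

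miR-27a-3p was the scarcest of the 3p members and the most variable of them. It had 40, 51, 22 and 11 counts in db/db, or 697, 991, 594 and 243 CPM, against 31, 1, 50 and 24 counts in db/m, or 821, 76.4, 672 and 459.8 CPM. The low values were those of db/db replicate 4 and db/m replicate 2. In db/m replicate 2 a single count was worth 75.3 CPM before scaling. The log2 fold change was 0.20 (SE 0.49, adjusted p = 0.925 by edgeR), and its 95% interval, -0.87 to 1.26, was about as wide as that of its 5p arm. Without db/m replicate 2 it was -0.03 and without db/db replicate 2 it was -0.10, so no direction can be given; without db/db replicate 4 it was 0.56, without db/m replicate 1 it was 0.55, and without db/db replicate 3 it was 0.34. Without db/m replicate 4 it was 0.11.

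**Figure D2:**
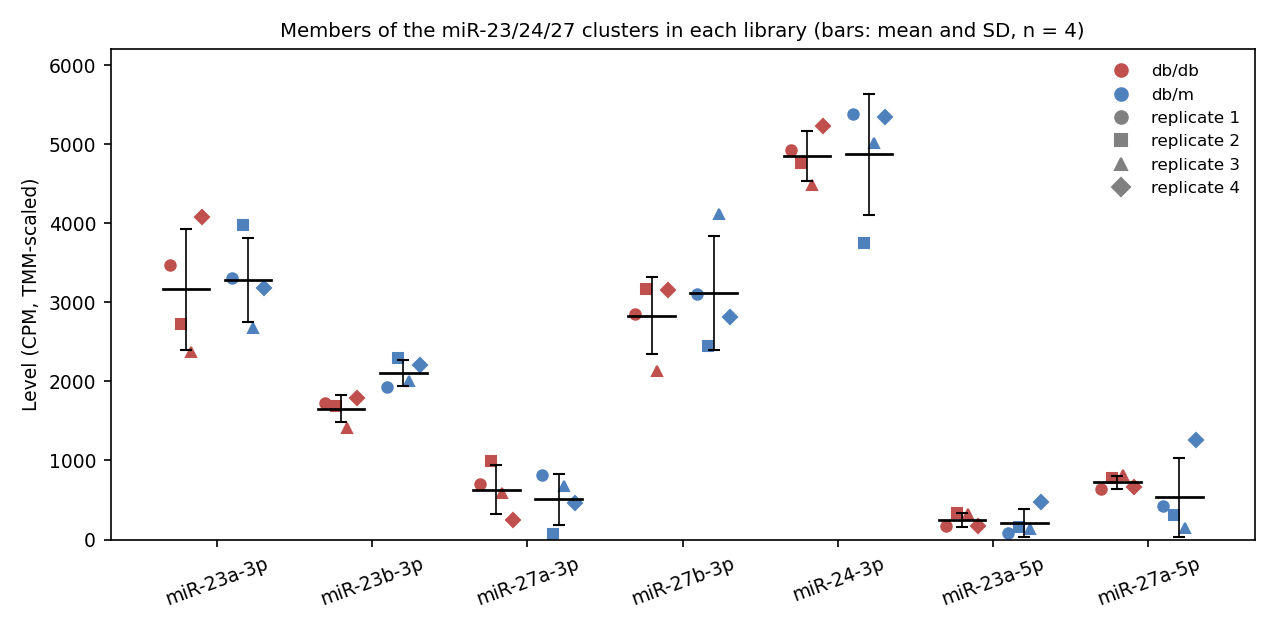
Level of each member in CPM (vertical axis) in every library, db/db in red left of db/m in blue, with marker shape for the replicate and black bars for the mean and SD of 4 libraries. The 4 db/db points of miR-23b-3p, 1405 to 1788 CPM, sit below the 4 db/m points, 1934 to 2292 CPM, while the genotypes overlap for every other member. Genotypes did not overlap for 17.4% of all tested miRNAs, and with library totals those of miR-23b-3p overlapped too.

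**Figure D3:**
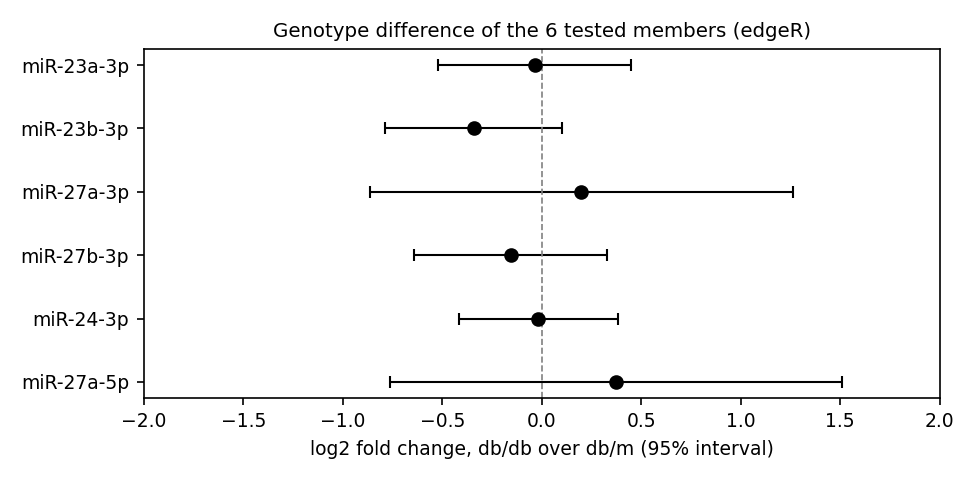
Log2 fold change of db/db over db/m for the 6 tested members (points) with 95% intervals from edgeR (lines). All 6 intervals include 0, and those of miR-27a-3p (-0.87 to 1.26) and miR-27a-5p (-0.76 to 1.51) are the widest.

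Across the 8 libraries the order of mean levels was miR-24-3p, miR-23a-3p, miR-27b-3p, miR-23b-3p, miR-27a-5p, miR-27a-3p and miR-23a-5p. All are of 21 to 22 bases where a sequence was matched, and each level is a count of whole miRNAs, not corrected for how well each is captured. miR-24-3p exceeded miR-23a-3p in 7 of 8 libraries. miR-23a-3p and miR-27b-3p were separated by 249.8 CPM, less than the larger SD of 614 CPM, with miR-23a-3p higher in 6 of 8. miR-27b-3p exceeded miR-23b-3p, and miR-23b-3p exceeded miR-27a-5p, in 8 of 8. miR-27a-5p and miR-27a-3p, the arms of 1 hairpin, differed by 60.2 CPM, less than the larger SD of 346 CPM, and the 5p arm was ahead in 4 of 8. miR-27a-3p was above miR-23a-5p in 6 of 8 libraries.

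As the counts were split, the a and b copies held opposite proportions of the miR-23 and miR-27 families. In the miR-23 family the a copy led in 8 of 8 libraries. miR-23a-3p made up 66.8%, 61.7%, 62.9% and 69.5% of the family's counts in db/db, against 63.1%, 63.4%, 57.2% and 59.1% in db/m. In the miR-27 family the b copy led in 8 of 8 libraries. miR-27a-3p made up 19.6%, 23.8%, 21.8% and 7.14% of the family's counts in db/db, against 20.9%, 3.03%, 14.0% and 14.0% in db/m. The 95% Wilson intervals of the miR-23a-3p share had their lowest bound at 51.9% (db/m replicate 3), and those of the miR-27a-3p share their highest at 30.8% (db/db replicate 3). These intervals cover counting error only, not the unknown assignment of reads that fit both copies. The sum of the a cluster's 3p members specific to it, miR-23a-3p and miR-27a-3p, was 3794 ± 607 CPM in db/db and 3793 ± 367 CPM in db/m, and the matching sum for the b cluster was 4481 ± 647 CPM in db/db and 5227 ± 609 CPM in db/m (SD, n = 4 each; sums given without a test).

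**Figure D4:**
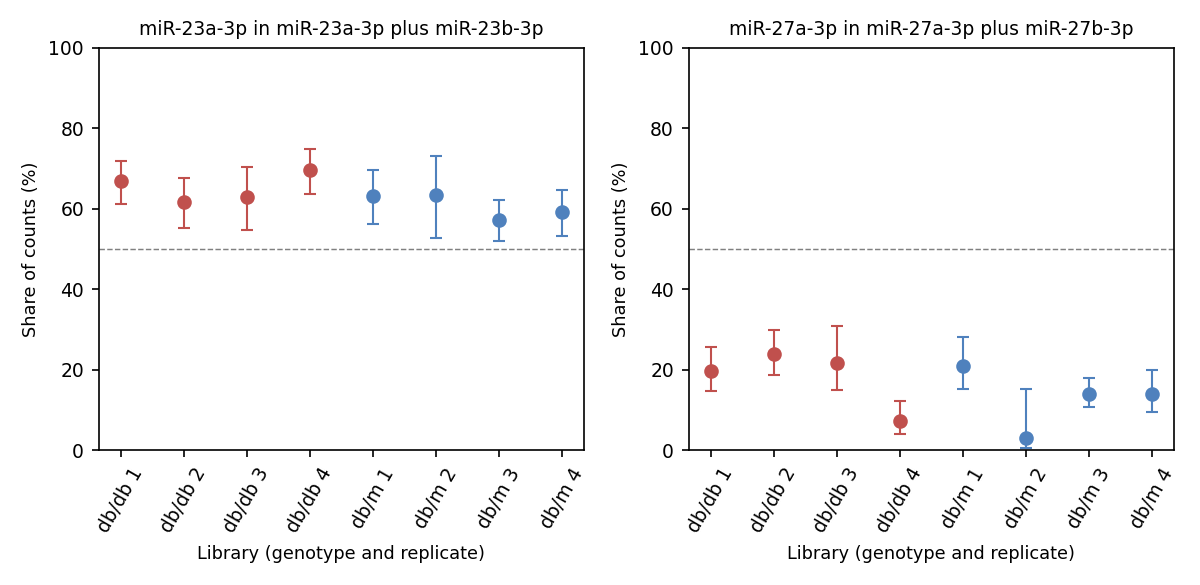
Share of the a copy in the counts of the miR-23 family (left) and the miR-27 family (right) in each library, in percent, with 95% Wilson intervals; db/db in red, db/m in blue, dashed line at 50%. The miR-23a-3p share runs from 57.2% to 69.5% and the miR-27a-3p share from 3.03% to 23.8%. How reads that fit both copies were assigned is not known.

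Whether this balance differed between genotypes was tested on 4 log2 ratios of counts, with 0.5 added to each count. Library size cancels in a ratio of counts, except that the added 0.5 weighs more where counts are low. The ratio of miR-23a-3p to miR-23b-3p averaged 0.91 ± 0.23 in db/db and 0.62 ± 0.18 in db/m (SD, n = 4 each). The difference of 0.28 had an exact two-sided permutation p of 0.171, and an adjusted p of 0.543 over the 4 ratios. The shifts that the exact permutation test did not reject ran from -0.10 to 0.77. As counts, 2.01, 1.61, 1.69 and 2.28 miR-23a-3p were read per miR-23b-3p in db/db, against 1.71, 1.73, 1.34 and 1.44 in db/m. The 2 highest of the 8 ratios were db/db replicates 4 and 1, and the 2 lowest were db/m replicates 3 and 4, while the other 4 lay in the opposite order, with db/db replicates 2 and 3 below db/m replicates 1 and 2.

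The ratio of miR-27a-3p to miR-27b-3p averaged -2.29 ± 0.91 in db/db and -2.88 ± 1.09 in db/m (log2, SD, n = 4 each). The difference of 0.59 had an exact permutation p of 0.486 and an adjusted p of 0.543, with unrejected shifts from -1.74 to 2.77. Without db/m replicate 2 the difference was 0.08 and without db/db replicate 4 it was 1.05. It was 0.92 without db/m replicate 1 and 0.39 without db/db replicate 2. With nothing added to the counts it was 0.72, and with 1 added it was 0.51. With libraries of 1 title number summed it was 0.24, a value without a test. The balance of this family was therefore measured less closely than that of miR-23, whose unrejected shifts spanned a narrower range.

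Within a cluster, the 2 families can be compared because they are cut from the same primary RNA. In the a cluster the log2 ratio of miR-23a-3p to miR-27a-3p averaged 2.43 ± 1.11 in db/db and 2.97 ± 1.49 in db/m (SD, n = 4 each; exact permutation p = 0.543, adjusted p = 0.543). There were 4.97, 2.75, 4.0 and 16.8 miR-23a-3p counts per miR-27a-3p count in db/db, against 4.03, 52.0, 3.98 and 6.92 in db/m, the 52.0 resting on a single miR-27a-3p count. The difference of -0.53 turned to 0.19 without db/m replicate 2. It was -1.06 without db/db replicate 4, -0.86 without db/m replicate 1 or db/m replicate 3, and -0.20 without db/db replicate 2. With nothing added to the counts it was -0.66, and with 1 added it was -0.45. With libraries of 1 title number summed it was -0.02, a value without a test. In the b cluster the order was the other way round. The log2 ratio of miR-23b-3p to miR-27b-3p averaged -0.76 ± 0.13 in db/db and -0.54 ± 0.41 in db/m (SD, n = 4 each), a difference of -0.22 with an exact permutation p of 0.343 and an adjusted p of 0.543. It was -0.07 without db/m replicate 2 and -0.39 without db/m replicate 3 (exact permutation p = 0.0571, not adjusted over the 4 ratios). That p was the lowest among the alternatives for this ratio. For 4 libraries against 4 the smallest p that this test can give is 0.0286, and it is larger when a library is left out. Each of the 8 libraries had more miR-27b-3p than miR-23b-3p and more miR-23a-3p than miR-27a-3p.

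The 5p arms were counted for the a cluster. miR-27a-5p, usually regarded as the passenger strand, was about as abundant as its 3p partner, with 234 counts over the 8 libraries beside 230 of miR-27a-3p. It had 645, 777, 810.5 and 662 CPM in db/db, against 424, 306, 148 and 1264 CPM in db/m. The db/db libraries lay close together, and the db/m libraries lay on both sides of them, with replicate 4 above and the other 3 below. The means were 724 ± 82.5 CPM in db/db and 535 ± 499 CPM in db/m (SD, n = 4 each), and the log2 fold change was 0.37 (SE 0.52, adjusted p = 0.770 by edgeR; 95% interval -0.76 to 1.51). Without db/m replicate 4, the only library of its title number, the log2 fold change was 1.38 at an adjusted p of 0.112. Without db/m replicate 3 it was -0.08, and without db/m replicate 2 it was 0.21. miR-23a-5p had 174, 330.4, 324 and 177 CPM in db/db, against 79.5, 153, 134 and 479 CPM in db/m. It did not pass the low-count filter, with 8 to 17 counts per db/db library and 2 to 25 per db/m library, and was not tested. db/m replicate 4 was the highest library for both arms.

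The share of the 5p arm in the miR-27a hairpin varied widely between libraries. It was 48.1%, 44.0%, 57.7% and 73.2% in db/db, against 34.0%, 80.0%, 18.0% and 73.3% in db/m. The 95% Wilson interval was 10.4% to 29.5% in db/m replicate 3 and 63.4% to 81.4% in db/m replicate 4, so the intervals of these 2 libraries of the same genotype did not overlap. The 80.0% of db/m replicate 2 rests on 5 counts. The miR-23a hairpin stayed with its 3p arm in every library, with a 5p share of 4.78%, 10.8%, 12.0% and 4.15% in db/db and 2.34%, 3.70%, 4.78% and 13.1% in db/m. Among 21 hairpins with both arms in the table and at least 200 counts, the arm share of miR-27a had the second widest range when the shallowest library was left out. It spanned 55.3 percentage points, after 61.7 for miR-92b, and that of miR-23a ranked 14th at 10.7 points. Hairpins of few counts had the widest ranges in this group, and the ranges were compared without a test. Pooled over 25 other hairpins, the minor arm held 13.4% to 14.0% of counts in db/db and 12.3% to 14.1% in db/m.

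**Figure D5:**
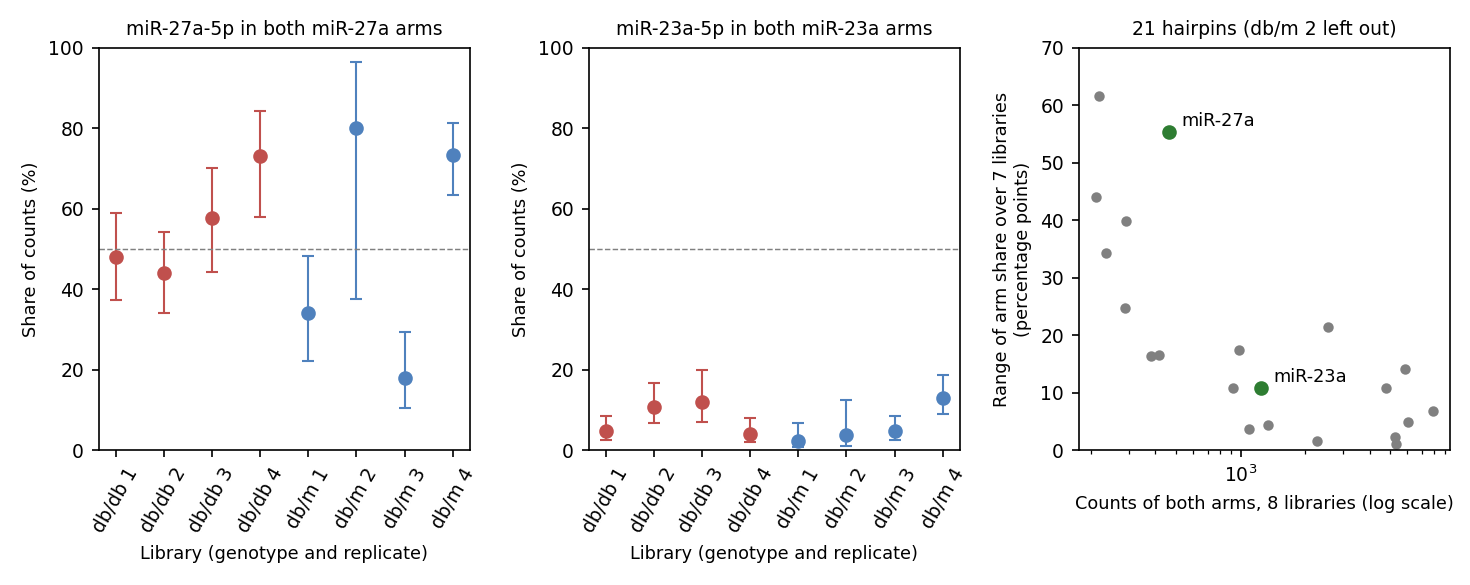
Share of the 5p arm in the counts of both arms of miR-27a (left) and miR-23a (middle) in each library, in percent with 95% Wilson intervals, db/db in red and db/m in blue, and the range of the arm share over 7 libraries in percentage points for 21 hairpins against their counts on a log axis (right). The miR-27a-5p share runs from 18.0% to 80.0%, the miR-23a-5p share from 2.34% to 13.1%.

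Members cut from the same RNA did not move together past the threshold across the 8 libraries. Of 5 relations on log2 CPM, that of the 5p arms, added after their values were seen, had a Pearson r of 0.72 (exact permutation p = 0.0417, adjusted p = 0.129) and a Spearman rho of 0.79 (exact permutation p = 0.0279, adjusted p = 0.140). Without db/m replicates 1 and 4, the libraries farthest from the median of miR-23a-5p, r was 0.76. miR-23a-3p and miR-27a-3p had an r of -0.69 (exact permutation p = 0.0514, adjusted p = 0.129) and a rho of -0.43 (exact permutation p = 0.299, adjusted p = 0.450). Without db/db replicates 3 and 4, the libraries farthest from the median of miR-23a-3p, that r was -0.75. This kept db/m replicate 2, where miR-27a-3p rests on 1 count (76.4 CPM) and miR-23a-3p had 3973 CPM. The r without that library was not computed, so the hold of the relation on it is not known. miR-23b-3p and miR-27b-3p had an r of 0.29 (exact permutation p = 0.499, adjusted p = 0.499) and a rho of -0.02 (exact permutation p = 0.977, adjusted p = 0.977), with an r of 0.09 without db/db replicate 3 and db/m replicate 2. For the a and b copies r was 0.55 in the miR-23 family (exact permutation p = 0.157, adjusted p = 0.262) and 0.33 in the miR-27 family (exact permutation p = 0.405, adjusted p = 0.499), with rho at 0.38 (exact permutation p = 0.360, adjusted p = 0.450) and 0.48 (exact permutation p = 0.243, adjusted p = 0.450). Leaving out the 2 libraries farthest from the median changed these r to 0.48 and 0.32. Values of 1 library share its scaling, and a genotype alone has too few libraries for its own correlation.

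The miRNAs outside the clusters whose levels were most like those of a member over the 8 libraries differed between members. They were picked as the highest Pearson r of log2 CPM, so r is a description. For miR-23a-3p they were miR-342-3p (r = 0.88), let-7f-5p (0.86) and miR-30c-5p (0.84). For miR-23b-3p they were miR-22-3p (r = 0.88), miR-139-3p (0.87) and miR-142a-5p (0.85). For miR-27a-3p they were miR-148b-3p (r = 0.92), let-7j (0.89) and let-7i-5p (0.85), and for miR-27b-3p they were miR-20b-5p (r = 0.76), miR-20a-5p (0.73) and miR-671-5p (0.68). For miR-24-3p they were miR-532-3p (r = 0.95), miR-107-3p (0.86) and let-7j (0.81), and for miR-27a-5p they were miR-125b-5p (r = 0.67), miR-99a-5p (0.58) and miR-139-5p (0.56). None of these miRNAs passed the threshold between the genotypes by edgeR's quasi-likelihood test.

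A search of the 163 miRNAs of the table with a matched sequence found no other miRNA with the seed of a member. miR-128-3p shares 6 of the bases of the miR-27 seed, CACAGU, shifted by 1 position.
miR-128-3p: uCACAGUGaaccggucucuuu
It had 1028, 1088, 1270 and 1833 CPM in db/db, against 2279, 2063, 2434 and 2337 CPM in db/m. All 4 db/db libraries lay below all 4 db/m libraries, and 17.4% of all tested miRNAs had genotypes that did not overlap. Its log2 fold change was -0.82 (SE 0.24, adjusted p = 0.0637 by edgeR's quasi-likelihood test), against -0.16 for miR-27b-3p and 0.20 for miR-27a-3p, and the difference between these was not tested. Over 16 alternatives its adjusted p ran from 0.00727 to 0.200 and was under 0.05 in 6. These were DESeq2 (0.00727), edgeR's likelihood ratio test (0.0238), libraries of 1 title number summed (0.0323), and the fits without db/db replicate 4 (0.0362), db/m replicate 3 (0.0422) or db/m replicate 2 (0.0450). All 6 passed more miRNAs of any kind than the 7 of the main fit, in the order given 16, 12, 15, 8, 18 and 9.

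Other miRNAs of the settings in which the clusters are known were counted for comparison. Of 6 listed miRNAs activated by PU.1 in myeloid cells, 5 were tested and 0 passed, 2 with log2 fold changes above 0 and 3 below, at a median of -0.06. miR-146a-5p had 10124 ± 3096 CPM in db/db and 14949 ± 5963 CPM in db/m, miR-223-3p had 8603 ± 2834 CPM in db/db and 8939 ± 1411 CPM in db/m, miR-155-5p had 5088 ± 904 CPM in db/db and 4495 ± 317 CPM in db/m, and miR-342-3p had 3024 ± 2076 CPM in db/db and 3979 ± 790.2 CPM in db/m (SD, n = 4 each). Of 7 tested lymphoid miRNAs 0 passed and 2 had an unadjusted p under 0.05 by edgeR, beside 22.2% of all tested. The 7 log2 fold changes, 3 above 0 and 4 below, ran from -0.63 to 1.00 at a median of -0.08. The most abundant were miR-181a-5p, at 11316 ± 5247 CPM in db/db and 11830 ± 3671 CPM in db/m, miR-150-5p, at 3461 ± 502 CPM in db/db and 5487 ± 2408 CPM in db/m, miR-181b-5p, at 1155 ± 327 CPM in db/db and 1402 ± 105 CPM in db/m, and miR-34a-5p, at 674 ± 118 CPM in db/db and 389 ± 285 CPM in db/m (SD, n = 4 each). Of 5 tested endothelial miRNAs 2 passed, both higher in db/db, beside 4.86% of all tested miRNAs in either direction. The 2 are the arms of 1 hairpin, miR-126a. These were miR-126a-3p, at 24199 ± 7669 CPM in db/db and 9312 ± 1727 CPM in db/m, and miR-126a-5p, at 6171 ± 2022 CPM in db/db and 2076 ± 556 CPM in db/m (SD, n = 4 each). The median of that list was 0.33, with 4 above 0 and 1 below, while miR-10a-5p and miR-221-3p, which did not pass, had log2 fold changes of 0.33 and 0.01. Of the 6 listed erythroid miRNAs only miR-486a-5p was tested, at -0.01. The median of all tested miRNAs was -0.03, with 66 above 0 and 78 below.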

How the data were processed

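Small RNA libraries were made with the QIAseq miRNA kit from Trizol RNA of flow-sorted LSK cells, per the labels' protocols. The authors deposited raw counts per mature miRNA, named by miRBase, with their own log2 CPM values and, for diabetic over control, a log2 fold change, a signed fold change read as a score, a p-value and a false discovery rate, all per the file headers. Per the submitters' processing notes, edgeR 3.41.9 and mm10 were used. No label or header read for this work names the aligner or says whether counts are reads or molecules. 0 columns of values were left without a sample.

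Counts were fitted with edgeR 4.0.16 in R 4.3.3: filterByExpr (minimum count 10, minimum total 15), TMM, estimateDisp, glmQLFit (robust) and glmQLFTest over 144 miRNAs, with Benjamini-Hochberg adjustment and a threshold of 0.05, two-sided. The SE is the log2 fold change over the square root of F. Ratios of counts were compared by exact permutation over 70 assignments, and an interval is the shifts not rejected at 0.05. Alternatives were DESeq2 1.42.0, the likelihood ratio test, other scalings and filters, summed libraries and leaving out each library. The fit was tested on simulated data. Wilson intervals (95%) used SciPy 1.17.1. Within genotypes all 12 library pairs differed beyond counting noise (chi-square over degrees of freedom 5.76 to 14.3). Each genotype holds 2 title numbers, shared by no library of the other genotype, so number and genotype cannot be told apart. The labels do not say whether each library is a separate animal, and p-values then measure only the spread between these samples.

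Members and lists were chosen with earlier results of these data known. The text names every member, the 3 miRNAs most like each tested member, miRNAs with a related seed, and up to the 4 most abundant of each list.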

Additional observations from a re-analysis of the deposited data

How the results depend on the processing

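No member passed the threshold under any of the 16 alternatives to the fit. The count of all miRNAs past it, 7, was 12 by the likelihood ratio test, 16 by DESeq2, 15 with libraries of 1 title number summed, 5 without a filter, and 3 to 18 when a library was left out (3 without db/db replicate 1, db/m replicate 1 or db/m replicate 4, and 18 without db/m replicate 3). Library totals shifted all log2 fold changes by a median of 0.11, and requiring 10 counts in all 8 libraries by 0.13. The log2 fold change of miR-23b-3p stayed below 0 in all 16, from -0.44 to -0.21. That of miR-23a-3p was 0.070 with library totals, 0.083 with at least 10 counts in every library and 0.046 with summed libraries, and -0.20 to 0.13 when a library was left out. That of miR-24-3p was 0.0042 with RLE factors, 0.093 with library totals and 0.10 with at least 10 counts in every library, and -0.13 to 0.093 when a library was left out. That of miR-27a-5p was -0.023 with summed libraries and -0.082 to 1.38 when a library was left out. With a library left out, miR-27a-3p ran from -0.10 to 0.56 and miR-27b-3p from -0.26 to 0.036. The difference in the log2 ratio of miR-23a-3p to miR-27a-3p ran from -1.06 to 0.19 when a library was left out. With libraries of 1 title number summed, which gives no test of a ratio, it was -0.017, and that of miR-27a-3p to miR-27b-3p was 0.24. The other 3 ratio differences kept their sign in all 11 alternatives each, and no ratio passed the threshold in the 10 that give a test. The cause of these changes was not tested. miR-27a-3p and miR-27a-5p have no value with at least 10 counts in every library, which removes them. No paired analysis was possible because replicate numbers follow the order of the labels and mark nothing shared between genotypes. At these depths 3 counts were worth 38.5 to 226 CPM before scaling, which limits scarce members such as miR-27a-3p, miR-27a-5p and miR-23a-5p.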
